A study of Rattus norvegicus with 6 samples.

Results

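T cell surface genes and cytotoxic granule genes were followed in rat renal cortex after 4 weeks of dosing. The members are 10 genes chosen by name: Cd3d, Cd3g, Cd247, Cd4, Cd8a, Cd8b, Cd2 and Cd6 of the T cell surface, and Gzma and Nkg7 of cytotoxic granules. Array probes were assigned to them through their RefSeq accession. All 10 had a probe and all 10 entered the test, out of 31179 genes tested. Cd2 entered on its vehicle arrays alone, because its probe was well above background on 0 of 3 benzyl acetate arrays and 3 of 3 vehicle arrays. The other 9 were well above background on all 6 arrays.

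The samples were renal cortex of 6 male Sprague-Dawley rats (Crl:CD(SD)), 5 weeks old when bought, with 1 one-colour Agilent array per animal. Benzyl acetate, a fragrance ester, was given to 3 rats at 1000 mg/kg/day, and 3 rats received corn oil, the vehicle, for the same 4 weeks. The labels name no allele, transgene or further treatment. The array of vehicle replicate 1 lay on slide 1, and slide 2 held the other 5.

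A T cell recognises a peptide held by an MHC molecule through its receptor, whose antigen-binding chains carry no signal of their own. The signal passes through the CD3 chains and the zeta chain, which are phosphorylated by the kinase Lck and recruit the kinase Zap70. Cytotoxic T cells and natural killer (NK) cells kill by releasing granules that hold granzymes and perforin, and the healthy kidney holds resident lymphocytes of both kinds in small numbers.

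In the RefSeq gene order of the GRCr8 assembly, Cd3g, Cd3d and Cd3e follow each other on chromosome 8, Cd8b and Cd8a are neighbours on chromosome 4, and Gzma lies beside Gzmk on chromosome 2. Promoter windows from RefSeq (GRCr8), 250 bases before to 50 after the gene start, were at hand for 7 of the 10 members. The windows of 2 receptor chains and of both granule genes are shown, because these are the groups that the results set side by side. Capitals mark AGGAAG, a core bound by ETS factors, TGTGGT, bound by RUNX factors, and CTTTGA, bound by TCF and LEF factors, on either strand. No 2 matches overlap. Cd3g lies at chr8:54183869-54184168 on the minus strand, Cd3d at chr8:54185269-54185568 on the plus strand, Gzma at chr2:46485647-46485946 on the minus strand and Nkg7 at chr1:102981247-102981546 on the plus strand.
Cd3g: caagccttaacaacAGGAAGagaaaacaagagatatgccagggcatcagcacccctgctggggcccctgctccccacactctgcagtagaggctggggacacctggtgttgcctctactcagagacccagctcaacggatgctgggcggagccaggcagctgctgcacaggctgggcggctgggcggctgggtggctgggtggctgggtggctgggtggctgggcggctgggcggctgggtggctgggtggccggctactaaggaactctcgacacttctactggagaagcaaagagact
Cd3d: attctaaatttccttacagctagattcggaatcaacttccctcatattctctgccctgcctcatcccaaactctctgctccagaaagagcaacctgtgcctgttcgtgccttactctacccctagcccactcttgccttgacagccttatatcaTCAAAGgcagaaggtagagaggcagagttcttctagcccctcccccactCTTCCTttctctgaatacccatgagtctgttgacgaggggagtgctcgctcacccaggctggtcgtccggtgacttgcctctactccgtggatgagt
Gzma: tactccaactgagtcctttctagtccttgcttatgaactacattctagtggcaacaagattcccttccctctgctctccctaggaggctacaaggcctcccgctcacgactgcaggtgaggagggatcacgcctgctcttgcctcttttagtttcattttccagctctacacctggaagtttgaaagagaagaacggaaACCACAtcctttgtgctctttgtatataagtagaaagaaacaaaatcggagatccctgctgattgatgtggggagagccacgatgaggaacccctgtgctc
Nkg7: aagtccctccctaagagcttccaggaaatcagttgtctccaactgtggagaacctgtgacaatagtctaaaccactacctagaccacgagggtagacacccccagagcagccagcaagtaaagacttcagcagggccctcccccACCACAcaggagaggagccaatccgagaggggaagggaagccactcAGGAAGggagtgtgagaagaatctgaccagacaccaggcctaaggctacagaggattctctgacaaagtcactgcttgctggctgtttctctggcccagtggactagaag

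AGGAAG or its reverse complement CTTCCT was in 4 of the 7 member windows (Nkg7, Cd3g, Cd3d and Cd247), against 34.5% of 33469 windows of the same length. TGTGGT or ACCACA was in 3 of 7 (Nkg7, Gzma and Cd2), against 17.3%. CTTTGA or TCAAAG was in 2 of 7 (Cd3d and Cd247), against 16.1%. These matches describe the letters in the windows only.

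The share of the 61537 probes with signal well above background ran from 69.0% to 71.95%, and was highest in vehicle replicate 3. All 9 renal cortex markers, among them Slc34a1 of the proximal tubule and Umod of the thick ascending limb, were well above background on all 6 arrays. The labels describe the 3 arrays of a group as biological replicates. The number of arrays limits the precision. All values below are log2 signals relative to the 75th percentile of the array, and differences are benzyl acetate minus vehicle from a limma fit to all genes.

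No member passed the threshold. Limma called 0 of 10 members at an adjusted p under 0.05, and it called 0% of all genes tested. The differences of all 9 members well above background on all 6 arrays were below 0, as were 46% of all genes. That of Cd2 was below 0 too. The median was -0.75 over the 8 T cell surface genes and -0.41 over the 2 granule genes, against 0.01 over all genes tested. When detection on all 6 arrays was asked, which leaves Cd2 out, the median was -0.69 over 7 surface genes. Cd2 is the lowest of the 8 at its fitted value and at its bound, so the choice between them leaves the median as it is. At an unadjusted p under 0.05, Gzma was lower among the 9 members well above background on all arrays, against 2.92% of all genes in that direction. Cd2 is left out of this count, since it entered through the vehicle arrays where it was high. No member was higher at that level, against 3.82% of all genes. Among the same 9, the treated arrays lay wholly below the vehicle arrays for Gzma, against 5.31% of all genes, and above them for 0 members, against 7.51%. Adjusted p-values of the members ran from 0.70 to 0.95 in limma. In bulk tissue, fewer cells of a type and less RNA per cell cannot be told apart.

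**Figure D1:**
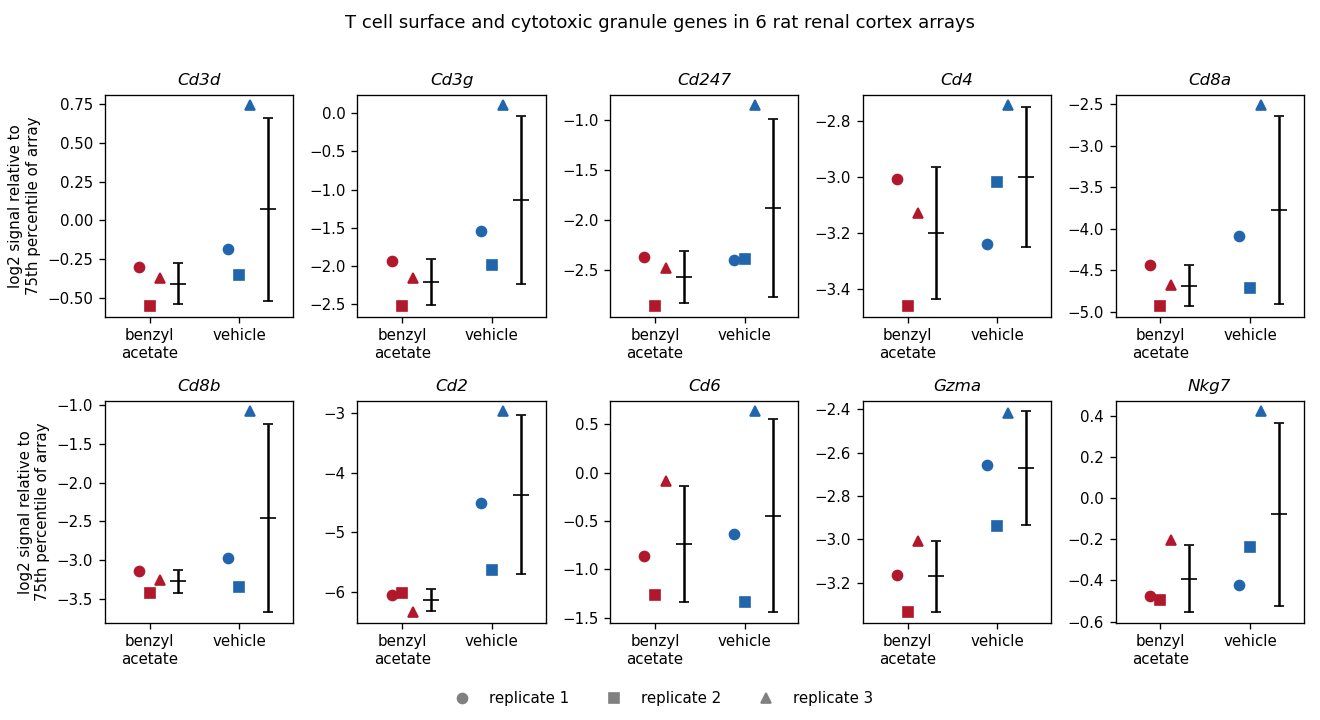
Log2 signal of each of the 10 genes, relative to the array's 75th percentile, with benzyl acetate arrays on the left and vehicle arrays on the right of each panel; symbols mark replicates, and bars give the mean and SD of 3 arrays. Vehicle replicate 3 (blue triangle) is the highest point in all 10 panels, and the 3 treated points lie below all 3 vehicle points for Gzma and for Cd2, whose treated points are not well above background.

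The CD3 delta chain, Cd3d, stood at -0.30, -0.56 and -0.37 in benzyl acetate replicates 1 to 3, against -0.18, -0.35 and 0.74 in vehicle replicates 1 to 3. The groups overlapped, and vehicle replicate 3 alone was above 0. The means were -0.41 ± 0.13 with benzyl acetate and 0.07 ± 0.59 with vehicle (SD, n = 3 each), a difference of -0.48 (95% interval -1.19 to 0.24, limma adjusted p = 0.80).

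The CD3 gamma chain, Cd3g, which pairs with CD3 epsilon as the delta chain does, gave -1.94, -2.53 and -2.16 with benzyl acetate, against -1.54, -1.98 and 0.10 with vehicle. Benzyl acetate replicate 1 lay just above vehicle replicate 2, so the groups overlapped there. The means were -2.21 ± 0.30 with benzyl acetate and -1.14 ± 1.099 with vehicle (SD, n = 3 each), a difference of -1.07 (-2.40 to 0.26, limma adjusted p = 0.77).

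The zeta chain, Cd247, which NK cells also use for signalling, gave -2.37, -2.87 and -2.48 with benzyl acetate, against -2.40, -2.39 and -0.85 with vehicle. Apart from vehicle replicate 3 and the lower benzyl acetate replicate 2, the arrays were close together. The difference was -0.69 (-1.78 to 0.40, limma adjusted p = 0.81). A second Cd247 probe was not well above background on any array. The epsilon chain, Cd3e, was not tested: its 1 probe was well above background on 1 of 3 benzyl acetate arrays and 2 of 3 vehicle arrays. It measured -5.71, -5.91 and -5.42 with benzyl acetate, against -5.55, -6.00 and -3.55 with vehicle, so vehicle replicate 3 was again the highest.

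Cd8a and Cd8b encode the chains of the co-receptor for MHC class I, and in rats the alpha chain is also found on NK cells. Cd8a gave -4.44, -4.94 and -4.68 with benzyl acetate, against -4.08, -4.72 and -2.51 with vehicle. Cd8b gave -3.14, -3.42 and -3.25 with benzyl acetate, against -2.96, -3.34 and -1.08 with vehicle. Both pairs of groups overlapped, with vehicle replicate 2 inside the treated range. The differences were -0.91 for Cd8a (-2.27 to 0.44) and -0.81 for Cd8b (-2.23 to 0.61), with limma adjusted p-values of 0.80 and 0.83. A second Cd8b probe differed by -0.70.

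Cd4, the co-receptor for MHC class II, is carried in rats by macrophages as well as by helper T cells. It gave -3.01, -3.46 and -3.13 with benzyl acetate, against -3.24, -3.02 and -2.74 with vehicle. The groups overlapped widely, and vehicle replicate 3 was the highest by 0.26. The difference, -0.20 (-0.62 to 0.22, limma adjusted p = 0.85), was the smallest of the 10. A second Cd4 probe differed by -0.17.

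Cd2, an adhesion receptor of T and NK cells, gave -6.04, -6.01 and -6.34 with benzyl acetate, against -4.50, -5.63 and -2.97 with vehicle. All 3 treated values were not well above background, so they give only an approximate bound on the means of the processed signal. By that bound, the mean was lower with benzyl acetate than with vehicle by about 2.79-fold or more. It was lower by about 1.72-fold or more when vehicle replicate 3 was left out. The bound covers the measured means and not their spread, which was 1.33 with vehicle (SD, n = 3). The bound sets the vehicle mean against the lowest signal well above background, or the probe's own signal where higher, on each treated array. It is not strict, since spots not well above background can exceed that lowest signal. Cd3e exceeded it on all 3 benzyl acetate arrays and was well above background on 1 of them. Cd2 did not pass (limma adjusted p = 0.71). With normexp background correction its fitted difference was -0.50, against -1.77 with the processed signal, and no bound was computed under normexp.

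Cd6 encodes a scavenger-receptor type protein of T cells that binds the adhesion molecule ALCAM. The probe of highest signal gave -0.86, -1.27 and -0.09 with benzyl acetate, against -0.64, -1.34 and 0.63 with vehicle, with vehicle replicate 2 the lowest array of all. The difference was -0.29 (-1.65 to 1.07, limma adjusted p = 0.95). Of the 4 Cd6 probes, 3 had vehicle replicate 3 highest and benzyl acetate replicate 3 next, and they differed by -0.29, -0.65 and -0.71. The fourth probe differed by -0.03, and on it benzyl acetate replicate 3 was the lowest array at -1.78. The probes of Cd6 therefore disagree on the order of the arrays.

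Gzma encodes granzyme A, a serine protease of cytotoxic granules. It gave -3.16, -3.34 and -3.01 with benzyl acetate, against -2.66, -2.94 and -2.42 with vehicle. The groups did not overlap, and vehicle replicate 3 was the highest by 0.24. The means were -3.17 ± 0.16 with benzyl acetate and -2.67 ± 0.26 with vehicle (SD, n = 3 each). The difference of -0.50 (-0.88 to -0.11) had an unadjusted p of 0.019 and did not pass over all genes (limma adjusted p = 0.70).

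Nkg7 encodes a membrane protein of cytotoxic granules. It gave -0.48, -0.50 and -0.20 with benzyl acetate, against -0.42, -0.24 and 0.42 with vehicle. The groups overlapped, since benzyl acetate replicate 3 exceeded 2 of the vehicle arrays. The difference was -0.31 (-0.88 to 0.25, limma adjusted p = 0.83).

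Vehicle replicate 3 was the highest array for every member well above background on all arrays, against 14.9% of all genes. Its value exceeded the next highest array by at least 1 log2 for Cd3g, Cd247, Cd8a and Cd8b, against 0.148% of all genes (46 genes). Cd2 was highest there too, by 1.53, but is left out of these counts, since it entered through the vehicle arrays. An array exceeding all others by 1 log2 was not particular to this animal, since benzyl acetate replicates 1 to 3 had 45, 77 and 23 such genes and vehicle replicates 1 and 2 had 11 and 19. The T cell surface members other than Cd4 stood further out in vehicle replicate 3 than both granule members. Vehicle replicate 3 minus the mean of vehicle replicates 1 and 2 was 2.09 for Cd2, 2.07 for Cd8b, 1.89 for Cd8a, 1.86 for Cd3g, 1.62 for Cd6, 1.55 for Cd247, 1.01 for Cd3d and 0.38 for Cd4. For the granule genes it was 0.75 for Nkg7 and 0.38 for Gzma. As folds these run from 4.27 for Cd2 to 1.30 for Gzma, with a median over all genes of 0.01 log2. Cd4 was thus at the level of Gzma in this order and apart from the other surface genes. Of the cytotoxic genes that are not members, the same difference was 2.26 for Ctsw, 1.12 for Gzmk and 1.06 for Gzmm. It was 0.84 for Prf1 and -0.60 for Gzmb. The order of surface and granule members therefore does not extend to all cytotoxic genes.

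**Figure D2:**
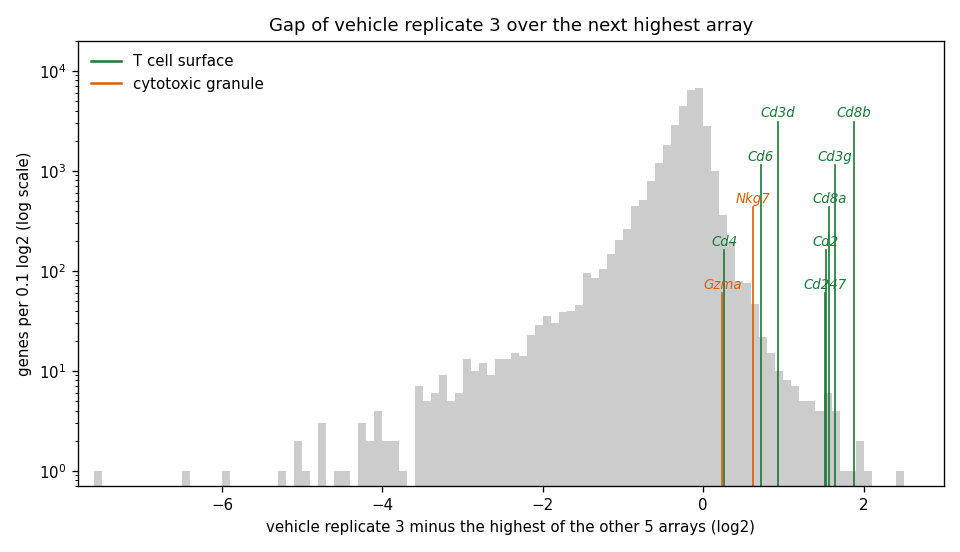
Distribution over 31165 genes of vehicle replicate 3 minus the highest of the other 5 arrays, in log2 on the horizontal axis and genes per 0.1 log2 on a log vertical axis; lines mark the 10 members. Cd8b, at 1.88, and 4 other surface genes lie past 1.5, while Gzma (0.24), Cd4 (0.26) and Nkg7 (0.62) lie nearer to the bulk. Cd2, one of those past 1.5, entered through its vehicle arrays alone.

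Without vehicle replicate 3, the median difference was -0.16 for the 8 surface genes, Cd2 among them, against -0.75 with all 6 arrays. For the 2 granule genes it was -0.22, against -0.41. The median over all genes was then 0.02. Limma again called 0 of 10 members and 0% of all genes, with member adjusted p-values of 0.60 to 0.94. The difference was -0.14 for Cd3d (-0.44 to 0.15), -0.45 for Cd3g (-1.03 to 0.14), -0.18 for Cd247 (-0.60 to 0.25), -0.28 for Cd8a (-0.91 to 0.35), -0.12 for Cd8b (-0.52 to 0.28) and -0.07 for Cd4 (-0.50 to 0.36). That of Cd6 changed sign, to 0.25 (-0.81 to 1.30). For Cd2 only the approximate bound of 1.72-fold is given. Of the granule genes, Nkg7 stood at -0.06 (-0.39 to 0.27) and Gzma at -0.37 (-0.74 to -0.00015).

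Gzma thus moved by 0.13 when that array was left out, the same as Cd4 and less than the other 8. Gzma had an unadjusted p of 0.050, against 3.39% of all genes under 0.05 on the lower side. On the higher side there were 0 members, against 4.14% of all genes. The 3 treated arrays lay below vehicle replicates 1 and 2 for Gzma alone of the 9, against 10.8% of all genes, and above them for 0 members, against 14.5%. For Cd3g, Cd8a and Cd8b, the treated arrays lay below vehicle replicate 1 but not below vehicle replicate 2. The array that was left out was the highest for every member, so its removal can only move the differences upwards.

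**Figure D3:**
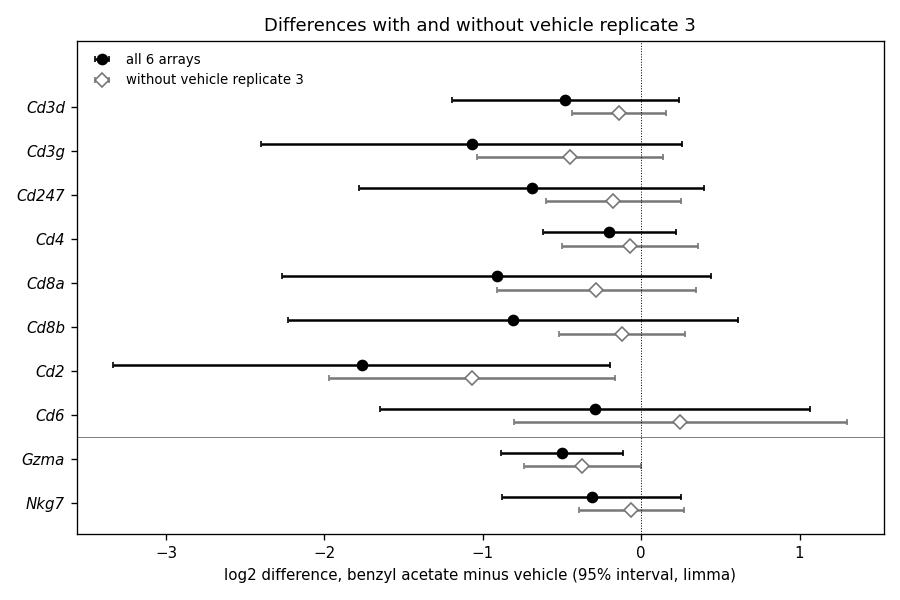
Log2 difference of each member, benzyl acetate minus vehicle, with its 95% limma interval, from all 6 arrays (filled circles) and without vehicle replicate 3 (open diamonds); a line separates surface from granule genes. Without that array every difference is nearer to 0 or above it, and the interval of Gzma ends just below 0. Cd2 is drawn at its fitted value, which rests on treated signals not well above background.

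The genes that carry the receptor's signal were read from a list of 20, of which 16 had a probe and 12 were tested. All 12 were lower, with a median of -0.62, and 0 passed in limma. At an unadjusted p under 0.05, 5 of 12 were lower with all arrays, against 2.92% of all genes, and 5 without vehicle replicate 3, against 3.39%. The treated arrays lay below all vehicle arrays for 6 of 12, against 5.31% of all genes, and for 6 without vehicle replicate 3, against 10.8%. The median was then -0.33, with 11 of 12 lower. The list's mean, relative to the 6-array mean of each gene, was -0.25, -0.35 and -0.21 with benzyl acetate, against 0.07, 0.04 and 0.70 with vehicle, so the treated arrays were below each vehicle array.

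Among its genes of highest signal, Ptprc (the CD45 phosphatase of all white cells) differed by -0.50, Zap70 by -0.66 and the adaptor Lat by -0.77. Zap70 gave -2.12, -2.14 and -2.02 with benzyl acetate, against -2.16, -1.90 and -0.25 with vehicle. Its difference was -0.06 without vehicle replicate 3, so its value rests on that array as those of Cd8b and Cd247 do. Lat gave -2.17, -2.07 and -2.38 with benzyl acetate, against -1.93, -1.42 and -0.97 with vehicle. It differed by -0.53 without vehicle replicate 3, and the groups stayed apart. Lck, the kinase bound to Cd4 and Cd8, differed by -0.67, and by -0.35 without that array. Sit1, a membrane adaptor that was singled out after its values were seen, differed by -1.11, and by -0.80 without that array.

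Among the genes of T cell identity and co-stimulation, 14 of 20 with a probe were tested. The median was -0.10, with 10 of 14 lower, and 0 passed in limma. At an unadjusted p under 0.05, 1 of 14 was lower, against 2.92% of all genes, and 0 were higher, against 3.82%. Treated arrays lay below all vehicle arrays for 1 of 14, against 5.31% of all genes. They lay above them for 1, Ctla4 (0.28), against 7.51%. The 4 of highest signal were Tbx21 (0.13), Il2rg (-0.11), Gata3 (-0.01) and Cd7 (-0.26). The probe assigned to Tbx21, the gene of the T-bet transcription factor of lymphocytes, ran from 6.23 to 6.40 with benzyl acetate, against 6.08 to 6.23 with vehicle. Its signal is very high for a lymphocyte factor in renal cortex, and what the probe measures was not checked. Vehicle replicate 3 was the highest array for 8 of the 14 genes, among them Cd27, and not for Tbx21 or Gata3. Without vehicle replicate 3 the list's median was -0.04. Treated arrays then lay below the vehicle arrays for 1 of 14, against 10.8% of all genes, and above them for 3, against 14.5%. Icos was among those 3 and differed by 0.52, against 0.27 with all 6 arrays.

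The list of other cytotoxic and NK cell genes had 14 tested of 22 with a probe. The median was -0.40, with 13 of 14 lower, and 0 passed in limma. Treated arrays lay below all vehicle arrays for 3 of 14, against 5.31% of all genes. Without vehicle replicate 3 they did so for 3 of 14, against 10.8%, and the median was -0.17. The proteoglycan Srgn differed by -0.16, the chemokine Ccl5 by -0.58, the receptor Klrk1 by 0.05 and granzyme M, Gzmm, by -0.67. Prf1, which encodes perforin, gave -1.88, -1.81 and -2.19 with benzyl acetate, against -2.11, -1.70 and -1.07 with vehicle, a difference of -0.33 that was -0.06 without vehicle replicate 3. Gzmb, granzyme B, differed by -0.28, and vehicle replicate 3 was its lowest vehicle array. Gzmk, the neighbour of Gzma, was singled out after its values were seen. It gave -3.39, -3.39 and -3.81 with benzyl acetate, against -3.12, -3.17 and -2.02 with vehicle. The groups did not overlap, with a difference of -0.76, and of -0.38 without vehicle replicate 3. The granzymes thus differed among themselves in how far vehicle replicate 3 stood out: by 1.099 for Gzmk, 1.06 for Gzmm and 0.24 for Gzma over the next array, and by -0.82 for Gzmb.

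The list of chemokines and receptors that draw T cells had all 10 genes tested, with a median of -0.42. Of the 10, 7 were lower and 0 passed in limma. At an unadjusted p under 0.05, 2 of 10 were lower, against 2.92% of all genes. Treated arrays lay below all vehicle arrays for 4 of 10, against 5.31% of all genes. The 4 of highest signal were Cxcl16 (0.10), Ccl19 (-0.42), Ccl21 (0.09) and Cxcl10 (-0.29). Without vehicle replicate 3 the median was -0.30. Treated arrays then lay below the vehicle arrays for 4 of 10, against 10.8% of all genes, and above them for 2, against 14.5%.

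Genes with a symbol and signal well above background on all 6 arrays were then ordered by how far vehicle replicate 3 exceeded the next highest array, as a description of this array. The first 10 were Mis18a (2.48), Ctsw (2.06), Cd8b (1.88), Cd27 (1.77), Zap70 (1.65), Cd3g (1.64), Cd8a (1.57), Ccl5 (1.54), Cxcr3 (1.52) and Cd247 (1.52). Of these 10, 4 are members and 5 are in the T and NK cell lists, and Mis18a, a centromere protein gene, is in none. Of the 46 genes that exceeded by at least 1 log2, 27 had a symbol. Of these, 5 were members, 10 came from the 4 T and NK cell lists and 0 from the other lists. These counts include Cd2 and Cxcr6, which were not well above background on all 6 arrays.

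The list means of B cell, macrophage, dendritic cell and neutrophil markers were also highest in vehicle replicate 3, by smaller amounts. That of mast cell markers was not. The mean of the T cell surface genes, relative to each gene's 6-array mean, was -0.25, -0.62 and -0.30 with benzyl acetate, against 0.07, -0.33 and 1.43 with vehicle. B cell markers stood at 0.42, -0.79 and 0.00 with benzyl acetate, against 0.07, -0.19 and 0.48 with vehicle, over 5 tested genes. Macrophage and monocyte markers stood at 0.03, -0.29 and 0.08 with benzyl acetate, against -0.11, -0.02 and 0.30 with vehicle. Dendritic cell and MHC class II genes stood at -0.03, -0.60 and -0.02 with benzyl acetate, against -0.23, 0.41 and 0.47 with vehicle. Neutrophil markers stood at -0.36, 0.10 and -0.06 with benzyl acetate, against -0.02, 0.09 and 0.25 with vehicle. Vehicle replicate 3 was thus the highest array for all 4 of these lists as for the T cell surface genes. Benzyl acetate replicate 2 was the lowest for the B cell, macrophage and dendritic cell lists as for the T cell surface genes. Its B cell value of -0.79 includes Cd22 (-7.50) and Cd79b (-5.73). These were well above background on 4 and 5 of the 6 arrays, and Cd22 entered through its vehicle arrays. Gene by gene, vehicle replicate 3 was highest for 1 of 5 B cell, 5 of 9 macrophage, 3 of 6 dendritic cell and 2 of 3 neutrophil genes. The share over all genes was 14.9%. Mast cell markers stood at 0.07, -0.35 and 0.21 with benzyl acetate, against 0.30, -0.19 and -0.05 with vehicle, and 0 of 4 were highest in vehicle replicate 3. Whether the lists differ in this was not tested. The summed B cell signal, as a multiple of the array's 75th percentile, was 1.91 to 2.57 with benzyl acetate and 1.13 to 2.41 with vehicle, and Bank1 and Cr2 were not well above background on any array. Pax5 (0.61), Fcrla (0.17) and Cd79b (-0.44) were among its genes of highest signal, and 3 of 5 were lower, Cd79b and Cd22 among them.

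Macrophage and monocyte markers had 8 of 9 tested genes lower, with Lyz2 (-0.05), C1qb (-0.09), C1qa (-0.17) and Cd68 (-0.21). Their summed signal was 64.7 to 100.03 with benzyl acetate and 78.7 to 89.9 with vehicle, and Cd163 was not well above background. Dendritic cell and MHC class II genes had 6 of 6 lower, with Cd74 (-0.35), RT1-Bb (-0.56), RT1-Da (-0.42) and RT1-Db1 (-0.28). Their summed signal was 41.4 to 71.5 with benzyl acetate and 61.2 to 87.8 with vehicle, and Xcr1 and RT1-Ba were not well above background. The median of this list was -0.38 with all arrays and -0.31 without vehicle replicate 3, with 6 of 6 lower in both. That of the macrophage list was -0.13 and -0.06, that of the B cell list -0.44 and -0.35, and that of the neutrophil list -0.24 and -0.07. The B cell medians are the differences of Cd79b, which was well above background on 5 of 6 arrays. Neutrophil markers had 3 of 3 lower (S100a9 -0.40, S100a8 -0.24, Csf3r -0.005), summed at 0.48 to 0.69 with benzyl acetate and 0.61 to 0.84 with vehicle, and Elane and Mmp8 were not well above background.

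Mast cell markers (Tpsab1 0.07, Kit 0.16, Tpsb2 0.05, Mcpt1 -0.45) summed to 2.55 to 2.93 with benzyl acetate and 2.45 to 2.81 with vehicle, with 1 of 4 lower and Fcer1a not well above background. Red cell genes (Hba-a1 0.04, Hbb 0.04, Slc4a1 0.09, Alas2 -0.05) summed to 602.3 to 694.6 with benzyl acetate and 579.5 to 660.9 with vehicle, with 1 of 4 lower. Lymph node and lymphatic stroma genes (Pdpn 0.20, Cxcl13 0.17, Lyve1 -0.28) summed to 5.46 to 6.84 with benzyl acetate and 4.84 to 7.05 with vehicle, with 1 of 3 lower and Madcam1 and Prox1 not well above background. Cxcl13, the chemokine of lymphoid follicles, was lowest in vehicle replicate 3, at -1.02. Of the fat genes, Adipoq differed by 0.34 and Cidec by -0.09, and Fabp4 was not well above background on any benzyl acetate array. The list summed to 0.9986 to 1.495 with benzyl acetate and 0.759 to 1.502 with vehicle, with 2 of 3 lower, Fabp4 among them. Lep was not well above background. Relative to the 6-array mean of each gene, the fat list was low in benzyl acetate replicates 1 and 3 (-0.64 and -0.60) and in vehicle replicate 3 (-0.62). These means include Fabp4, which entered through its vehicle arrays. In benzyl acetate replicate 1, Adipoq (0.04) and Cidec (-1.59) were above their 6-array means of -0.22 and -1.74. The low list value there rests on Fabp4, at -8.04 against a mean of -5.72. Renal cortex markers (Miox 0.10, Slc34a1 -0.02, Umod -0.07, Lrp2 -0.03) summed to 1438 to 1556 with benzyl acetate and 1427 to 1581 with vehicle, with 6 of 9 lower. Umod stood apart in vehicle replicate 3, at 8.10, 8.05 and 7.97 with benzyl acetate, against 8.47, 8.33 and 7.54 with vehicle. So did Slc12a1, a transporter of the same tubule segment that was singled out after its values were seen, at 3.84, 4.14 and 3.83 with benzyl acetate, against 4.66, 4.29 and 3.71 with vehicle. That array was thus the lowest for both and the highest for every member. Without it, Umod differed by -0.36, against -0.07 with all 6 arrays, and Slc12a1 by -0.54, against -0.28. The treated arrays then lay below vehicle replicates 1 and 2 for 2 of the 9 renal cortex genes, these 2, against 10.8% of all genes. They lay above them for 1, against 14.5%. In limma 0 genes of these 9 lists passed. At an unadjusted p under 0.05 with all 6 arrays, the only gene on the higher side was 1 of the 9 renal cortex genes. On the lower side only Fabp4 was under that level. It is left out of the count, since it entered through the vehicle arrays where it was high. Of all genes, 2.92% were lower and 3.82% higher at that level. The part of other cell types, or of the segment sampled, in the member values was not tested.

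**Figure D4:**
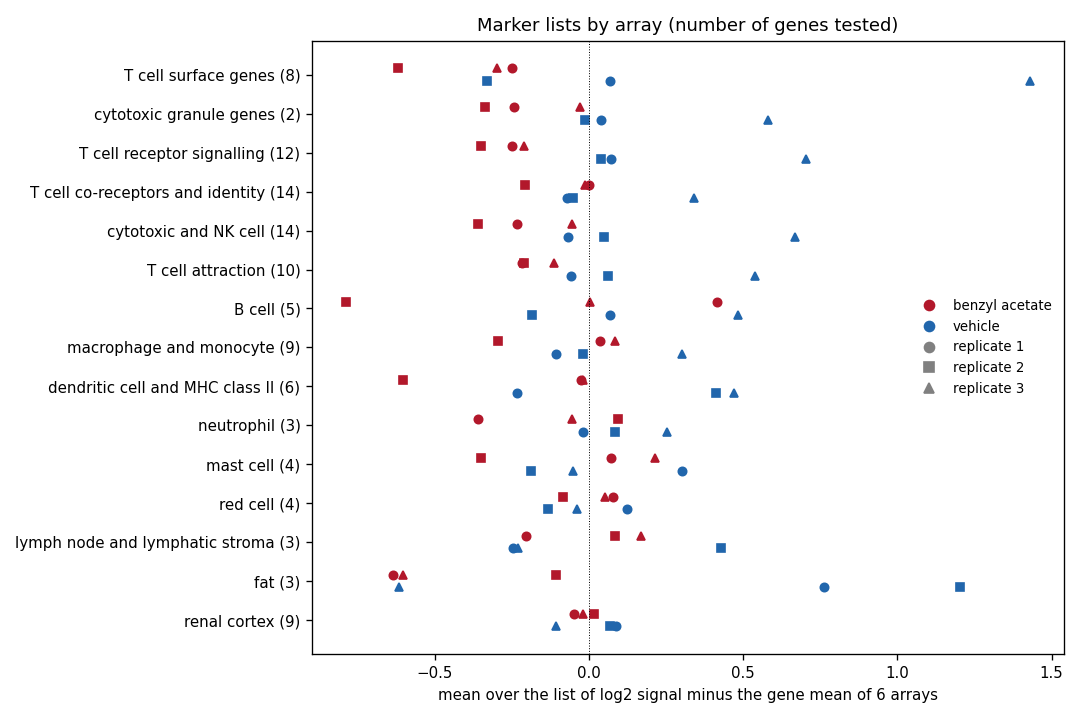
Mean over each list of log2 signal minus the gene's 6-array mean (horizontal axis), for each of the 3 benzyl acetate and 3 vehicle arrays, with the number of genes tested in brackets. Vehicle replicate 3 is at 1.43 for the T cell surface genes and 0.58 for the granule genes, and it is also the highest array for the B cell (0.48), dendritic cell (0.47), macrophage (0.30) and neutrophil (0.25) lists.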

How the data were processed

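Per the file headers, each deposited scanner table gives a processed signal, an intensity on a linear scale with background removed and no scaling across arrays, besides flags for background, outlier and saturated spots. The authors used Agilent Feature Extraction, version 10.7, according to the submitters' processing notes. The deposited value table of linear intensity equalled that signal divided by a constant per array (SD of the difference at most 0.000265 log2 for values above 0.05), so it is not centred, and its column medians were 0.1102 to 0.1148.

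Processed signals were taken to log2, and each array's 75th percentile (61537 probes that are not controls) was subtracted. Spots marked as outliers were left out, and no spot was saturated. A probe was kept when well above background on all 3 arrays of a group, and the probe of highest mean signal stood for a gene. By unversioned accession, 28206 probes matched a symbol in a RefSeq table (GRCr8), and 33331 kept their accession. The array grid names an older build, so no probe position is given. Because the scaling is relative, a change common to most transcripts is invisible. Limma 3.58.1 in R 4.3.3 (lmFit, eBayes) was fitted to 31179 genes with Benjamini-Hochberg adjustment and a threshold of 0.05, and was tested on simulated data. Fits that left out 1 array kept the same genes.

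Members and lists were chosen with earlier results of these data known, and lists are described by counts and medians only. The naming rule took all members, the 4 tested genes of highest signal in each list, the 10 genes of largest gap, and Cd3e, Lck, Zap70, Prf1, Gzmb and Ptprc. Some genes that the rule takes are not reported here. Sit1, Gzmk, Slc12a1, Ctla4, Icos, Cd22 and the genes of the other observations were picked with their values in view. The alternatives covered background correction, scaling, filters and probe rules, outlier spots kept, the deposited table, slide or replicate number as a block, array weights, a trended robust prior and leaving out each array.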

Additional observations from a re-analysis of the deposited data

How the results depend on the processing

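Of 199 member values under 20 alternatives, 198 kept their direction and stayed above the threshold, and 1 reversed: Cd6 was 0.25 without vehicle replicate 3, and ran from -0.74 to 0.25 over the fits leaving out 1 array. Slide as a block gave the same fit as leaving out vehicle replicate 1, the only array on slide 1. Its values are thus counted under both names and add no separate check. Cd2 gave no value where detection on all 6 arrays was asked. Its fitted difference was -0.50 with normexp, against -1.77. The count of genes called among all genes, 0 in limma (910 lower and 1190 higher at an unadjusted p under 0.05), was 2 with normexp background correction, and 0 to 2 over the fits that left out 1 array, with 2 without benzyl acetate replicate 1; none of these were members. With the replicate block 0 genes were called and the lowest adjusted p was 0.672; the block changed no call. Deviations of arrays with the same number correlated at -0.11, 0.0075 and 0.00095, so the numbers do not pair the animals. The median of the T cell surface genes ran from -1.10 to -0.16 over all alternatives, and from -1.10 to -0.16 over fits leaving out 1 array; that of the granule genes ran from -0.51 to -0.22. Both upper ends are without vehicle replicate 3. The cause of the normexp shift was not tested. Adjusted p-values of the members ran from 0.27 (Gzma) to 0.997 (Cd6). Signal over background limits Cd2 and Cd3e.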

Other observations

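Several genes that no list matched by symbol were also highest in vehicle replicate 3, and they were picked after their values were seen. Ptprcap, which encodes a partner of CD45, measured -3.05, -3.29 and -3.00 with benzyl acetate, against -2.69, -2.93 and -1.39 with vehicle. Its groups did not overlap. Faslg, the Fas ligand of killer lymphocytes, measured -4.08, -4.28 and -4.52 with benzyl acetate, against -4.16, -3.98 and -2.73 with vehicle. Hcst, the signalling adaptor DAP10, exceeded the next array by 1.18 in vehicle replicate 3, and Gimap7, a GTPase gene of lymphocytes, by 0.94. None of the 4 passed in limma, and their unadjusted p-values were 0.10, 0.14, 0.16 and 0.17.

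Cxcr4, the receptor for Cxcl12, did not follow vehicle replicate 3. It measured -4.02, -3.85 and -4.22 with benzyl acetate, against -3.47, -3.34 and -3.73 with vehicle. The groups did not overlap, and vehicle replicate 3 was the lowest vehicle array. The difference was -0.52 with all 6 arrays (unadjusted p = 0.011), and it was -0.62 without vehicle replicate 3. It did not pass over all genes in limma.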
